A study of Mus musculus with 6 samples.

Results

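The genes described here build the muscle nicotinic acetylcholine receptor and the postsynaptic apparatus that clusters it under the motor nerve. They are 10 of the 38924 genes in the deposited tables and were found by symbol: the receptor subunits Chrna1, Chrnb1, Chrnd, Chrng and Chrne, and the clustering pathway Agrn, Lrp4, Musk, Dok7 and Rapsn. In skeletal muscle the receptor is a pentamer of alpha, beta and delta subunits with either a gamma subunit, in fetal and denervated muscle, or an epsilon subunit, in innervated adult muscle. Agrin released by the nerve binds LRP4, which activates the kinase MUSK from outside the cell while DOK7 activates it from inside. Rapsyn then anchors the receptors in clusters. Several subunit genes are known targets of the myogenic helix-loop-helix factors, which bind E-boxes.

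The study asked how progenitor-like cells made from mouse fibroblasts compare with muscle stem cells. It sequenced poly(A) RNA from 6 libraries in 5 groups. Quiescent satellite cells (QSC), the resting stem cells of adult muscle, came from 2 animals, mouse 1 and mouse 3. Each other group was 1 library. Activated satellite cells (ASC) carry a label of Pax7-plus and p1 that is not explained further. Induced myogenic progenitor cells (iMPC) were reprogrammed from fibroblasts in a medium with doxycycline, and were sorted for presence (iMPC Pax7+) or absence (iMPC Pax7-) of nuclear GFP reporting Pax7. Expanded iMPC cultures had no doxycycline but 3 small molecules, forskolin at 5 µM, RepSox at 5 µM and a GSK3 inhibitor at 3 µM. Mouse embryonic fibroblasts (MEF) were the non-muscle control. Strain, age and sex of the animals and the fibroblast type behind the sorted iMPC were not given in the sources used here. One growth protocol text covers all samples, so the culture of ASC and MEF cannot be read from it.

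Library totals ran from 20859611 (ASC) to 29279686 (QSC mouse 1) counts over genes, with 18309 to 19545 genes detected. Scaling by trimmed mean of M values (TMM) gave factors of 0.717 and 0.763 for QSC and 1.11 to 1.21 for the other libraries, so the deposited RPKM, which were scaled to the total alone, sit lower in QSC relative to the others than TMM-scaled CPM (reads relative to the scaled library total) would place them. Pax7, the satellite cell marker, stood at 34.5 and 160 CPM in the QSC mice, 19.8 in ASC, 37.8 in iMPC Pax7+, 6.25 in iMPC Pax7- and 0 in MEF. Differences from QSC below are log2 fold changes ± standard error from edgeR's quasi-likelihood test with Benjamini-Hochberg adjustment over 17116 genes, called at an adjusted p under 0.05. Only QSC had replicates, so each lone library was taken to vary as the QSC mice did. All 4 comparisons use the same QSC libraries. In bulk RNA, fewer cells expressing a gene and less RNA per cell cannot be told apart.

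The 150 bases before the start site of 4 subunit genes are shown because E-boxes are the known binding sites of the myogenic factors and the N-box is the known nerve-dependent element of the epsilon subunit gene. They are RefSeq windows on GRCm38.p6, a later build than the mm9 of the counts, each read 5′ to 3′ on the gene's strand: Chrng chr1:87205661-87205810 (+), Chrna1 chr2:73580339-73580488 (-), Chrnb1 chr11:69795938-69796087 (-) and Chrne chr11:70619195-70619344 (-). Capitals mark E-boxes (CANNTG, which includes CAGCTG and CAGGTG) and the N-box (CCGGAA), searched on both strands.
Chrng: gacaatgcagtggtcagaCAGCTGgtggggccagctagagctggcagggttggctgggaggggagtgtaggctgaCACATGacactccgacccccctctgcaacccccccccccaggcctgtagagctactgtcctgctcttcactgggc
Chrna1: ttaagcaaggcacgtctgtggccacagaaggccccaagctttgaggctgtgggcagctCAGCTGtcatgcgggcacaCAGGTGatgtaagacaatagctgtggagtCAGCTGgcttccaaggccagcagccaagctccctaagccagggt
Chrnb1: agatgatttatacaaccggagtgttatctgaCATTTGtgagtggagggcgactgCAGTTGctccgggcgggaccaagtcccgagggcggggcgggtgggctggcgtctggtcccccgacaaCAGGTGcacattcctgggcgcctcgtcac
Chrne: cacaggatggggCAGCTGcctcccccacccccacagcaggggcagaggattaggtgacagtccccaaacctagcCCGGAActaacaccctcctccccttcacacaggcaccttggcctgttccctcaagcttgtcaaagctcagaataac
Positions count from the start site. Chrna1 has 3 E-boxes, CAGCTG at -92 and -44 and CAGGTG at -73. Chrng has CAGCTG at -132 and CACATG at -75. Chrnb1 has 3 E-boxes too, but its only match to either named sequence is CAGGTG at -29. Chrne has 1 E-box, CAGCTG at -138, and CCGGAA at -76. Of 32851 windows of this length, 47.7% hold CANNTG, 8.39% CAGCTG, 10.6% CAGGTG and 9.23% CCGGAA, and 0.536% hold CAGCTG 2 or more times, as Chrna1 does. Of the 10 genes, 7 matched a window, all but Chrnd, Lrp4 and Rapsn. A match describes the letters only.

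The receptor subunits did not move as 1 block. In ASC, Chrng, Chrnd and Chrna1 rose from QSC by 4.87 to 6.71 on the log2 scale while Chrnb1 did not pass the test. In both iMPC fractions Chrng and Chrnd rose and Chrnb1 fell. All 4 were lower in MEF, and Chrne was at or near 0 reads in every library.

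Chrng encodes the fetal gamma subunit. It stood at 4.43 and 0.269 RPKM in QSC mouse 1 and mouse 3, 379 in ASC, 67.9 in iMPC Pax7+, 89.4 in iMPC Pax7- and 0.0447 in MEF, from 249, 15, 15204, 3438, 4197 and 2 reads. ASC and both iMPC fractions were above both QSC mice and MEF was below both. The log2 difference from QSC was 6.71 ± 1.02 in ASC (edgeR adjusted p = 0.000186), 4.14 ± 0.93 in iMPC Pax7+ (0.0049) and 4.5 ± 0.94 in iMPC Pax7- (0.00313). In MEF it was -6.30 ± 1.53 (edgeR adjusted p = 0.00774), a CPM ratio of QSC to MEF of 82 that rests on 2 MEF reads (exact 95% interval 22.5 to 680, counting error only). These sizes depend on the mouse: against mouse 1 alone the ASC difference was 5.78 and against mouse 3 alone 9.76, the iMPC Pax7+ difference 3.21 and 7.19, the iMPC Pax7- difference 3.57 and 7.55, and the MEF difference was -6.29 and -2.31.

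Chrnd, the delta subunit gene and the neighbour of Chrng on the same strand, stood at 4.63 and 0.427 RPKM in QSC, 141 in ASC, 50.1 in iMPC Pax7+, 37.2 in iMPC Pax7- and 0.0295 in MEF, from 394, 36, 8534, 3843, 2644 and 2 reads. Its order of groups differed from that of Chrng only between the iMPC fractions, where the CPM ratio of Pax7+ to Pax7- was 1.38 for Chrnd and 0.780 for Chrng. The log2 difference from QSC was 5.17 ± 0.90 in ASC (edgeR adjusted p = 0.000672), 3.60 ± 0.86 in iMPC Pax7+ (0.00738), 3.13 ± 0.86 in iMPC Pax7- (0.0169) and -7.0 ± 1.46 in MEF (0.00293). The ASC difference was 4.28 against mouse 1 and 7.75 against mouse 3, the iMPC Pax7+ difference 2.71 and 6.18, the iMPC Pax7- difference 2.24 and 5.71, and the MEF difference -6.95 and -3.48. The CPM ratio of QSC to MEF was 134, again on 2 MEF reads (exact 95% interval 36.7 to 1106).

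Chrna1 encodes the alpha subunit, which carries the main part of the acetylcholine site. It stood at 22.5 and 12.3 RPKM in QSC, 772 in ASC, 60.7 in iMPC Pax7+, 49.0 in iMPC Pax7- and 0.235 in MEF, from 2892, 1562, 70648, 7017, 5256 and 24 reads. The ASC level is the highest of any of the 10 genes in any library. It rose by 4.87 ± 0.69 on the log2 scale in ASC (edgeR adjusted p = 0.000101) and fell by 6.85 ± 1.00 in MEF (0.000171). In the iMPC fractions it was above both mice, yet the differences of 1.11 ± 0.66 (edgeR adjusted p = 0.240) and 0.77 ± 0.66 (0.442) did not pass the test.

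Chrnb1, the beta subunit gene, had another order, with QSC highest. It stood at 168 and 197 RPKM in QSC, 156 in ASC, 37.3 in iMPC Pax7+, 23.6 in iMPC Pax7- and 4.47 in MEF, from 9077, 10537, 6009, 1814, 1065 and 192 reads. Every cultured library was below both QSC mice. It fell in 3 comparisons, with log2 differences of -2.96 ± 0.70 in iMPC Pax7+ (edgeR adjusted p = 0.00671), -3.66 ± 0.73 in iMPC Pax7- (0.00223) and -5.98 ± 0.83 in MEF (0.000106). The ASC difference of -0.81 ± 0.62 did not pass the test (edgeR adjusted p = 0.371). Of the 4 subunits with reads in MEF, Chrnb1 had the highest RPKM there.

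**Figure D1:**
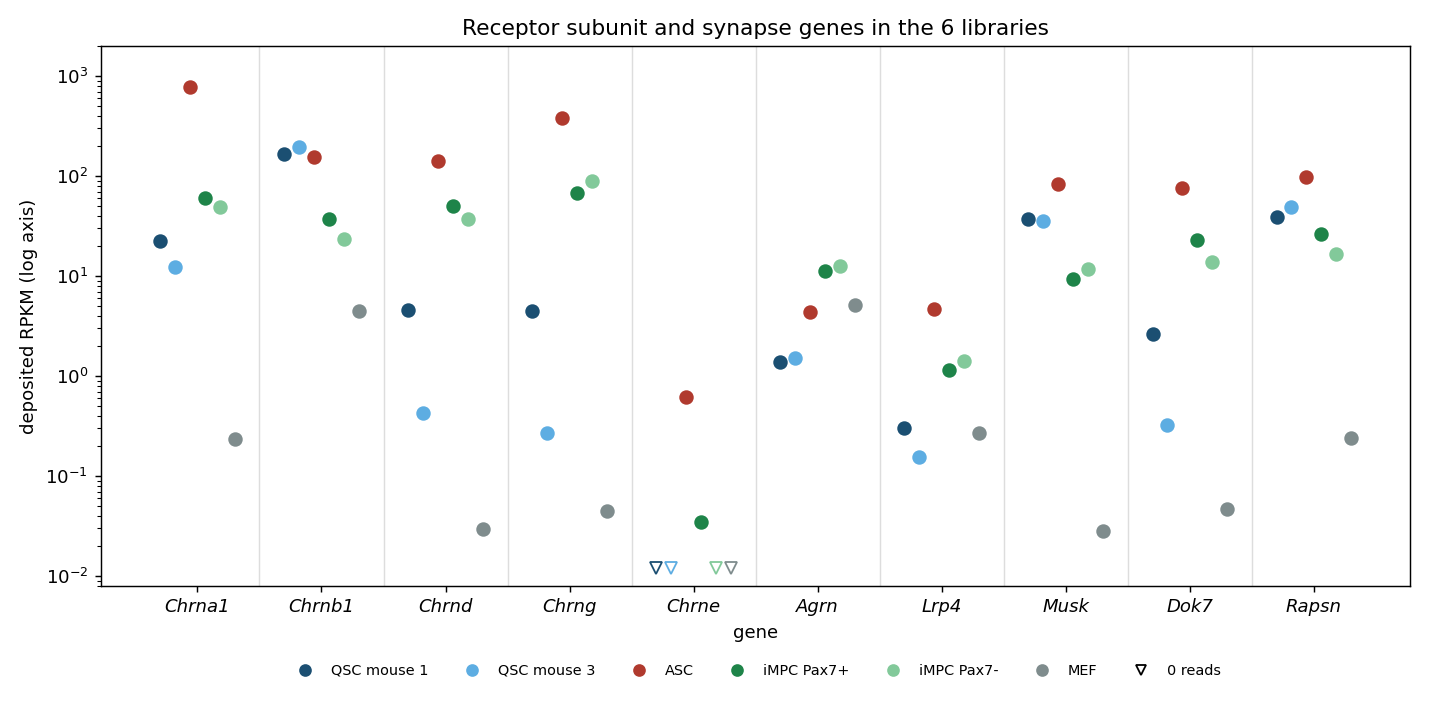
Deposited RPKM (log axis) of the 10 genes, 1 point for each of the 6 libraries, with open triangles at 0 reads. Chrng, Chrnd and Dok7 lie far apart between the QSC mice (17.5-, 11.5- and 8.64-fold in CPM) and are highest in ASC, whereas Chrnb1 is highest in QSC and Agrn in the iMPC fractions.

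Chrne encodes the adult epsilon subunit. It had 14 reads in ASC, 1 in iMPC Pax7+ and 0 in the other 4 libraries, which is 0.615 and 0.0348 RPKM. The gene 4930544D05Rik lies on the other strand over it and had 0 reads in all 6 libraries. Chrne passed the expression filter through the ASC reads alone. Against a floor of 3 reads over the QSC group it was at least 8.66-fold higher in ASC, and the difference did not pass the test (edgeR adjusted p = 0.12).

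Setting the fetal against the adult subunit within each library uses the deposited RPKM, which divide by gene length (1921 and 1091 bases implied for Chrng and Chrne). In ASC the Chrng level was 617 times that of Chrne (exact 95% interval 367 to 1128, covering counting error only). In iMPC Pax7+ the ratio was 1953, but it rests on 1 Chrne read and its interval spans 350 to 77144. Taking 3 reads as the most that 0 reads allow, Chrng was at least 795-fold higher in iMPC Pax7-, at least 47.1-fold in QSC mouse 1 and at least 2.84-fold in QSC mouse 3. MEF held 2 reads of Chrng and 0 of Chrne and gives no ratio. Where a ratio could be formed, the fetal subunit was the higher one, and the 15 Chrng reads in QSC mouse 3 bound the ratio only loosely.

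Summing the RPKM of the 5 subunit genes puts the total at 199 and 210 in QSC, 1449 in ASC, 216 in iMPC Pax7+, 199 in iMPC Pax7- and 4.78 in MEF. QSC and iMPC sums were thus close on the RPKM scale while their make-up differed. That closeness belongs to scaling by the total alone. TMM scaling, with factors of 0.717 and 0.763 in QSC and 1.18 and 1.21 in iMPC Pax7+ and Pax7-, would place the QSC sums above the iMPC sums. Chrnb1 made up 84.2% and 93.8% of the sum in the QSC mice and 93.5% in MEF, against 10.8% in ASC, 17.2% in iMPC Pax7+ and 11.8% in iMPC Pax7-. Chrng made up 2.22% and 0.128% in QSC, 26.2% in ASC, 31.4% in iMPC Pax7+ and 44.9% in iMPC Pax7-. Chrna1 was the largest share in ASC, at 53.3%. Chrnd stayed below Chrng and Chrna1 in all 3 of ASC and the iMPC fractions.

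**Figure D2:**
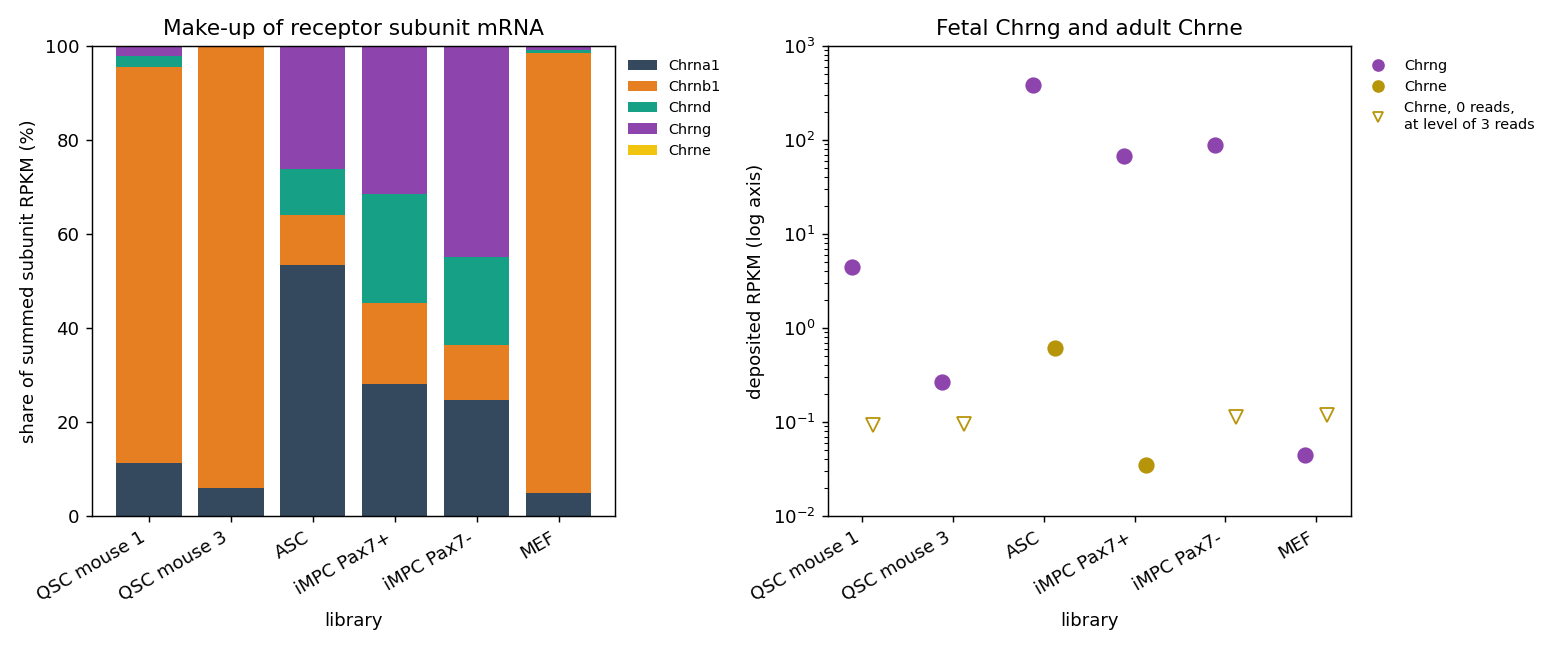
Share (%) of summed subunit RPKM held by each subunit gene in each library (left), and deposited RPKM (log axis) of Chrng and Chrne, with open triangles at the level of 3 reads where Chrne had 0. Chrnb1 fills 84.2% or more of the bars for QSC and MEF, and Chrng rises to 44.9% in iMPC Pax7-.

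Among the clustering genes, Dok7 and Lrp4 rose in ASC, Agrn and Dok7 rose in both iMPC fractions and Musk fell in both. Rapsn fell in iMPC Pax7-. In MEF, Musk, Rapsn and Dok7 fell.

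Agrn encodes agrin. Nerve-derived agrin is the form that clusters receptors, and muscle cells make other splice forms, which counts per gene do not separate. It stood at 1.40 and 1.51 RPKM in QSC, 4.39 in ASC, 11.3 in iMPC Pax7+, 12.5 in iMPC Pax7- and 5.12 in MEF, from 264, 283, 591, 1919, 1978 and 768 reads. All cultured libraries were above both QSC mice, MEF included. It rose by 2.28 ± 0.60 in iMPC Pax7+ (edgeR adjusted p = 0.0123) and 2.40 ± 0.60 in iMPC Pax7- (0.01) on the log2 scale. In ASC and MEF the differences of 1.00 ± 0.61 (edgeR adjusted p = 0.254) and 1.18 ± 0.60 (0.179) did not pass the test. Beside it, the summed CPM of 8 fibroblast markers was 1030 and 629 in QSC, 631 in ASC, 1994 in iMPC Pax7+, 7983 in iMPC Pax7- and 15914 in MEF. Col3a1 alone gave 694 and 254 of this in QSC, 607 in ASC and 1662 in iMPC Pax7+. In iMPC Pax7+ the markers were split, with 2 of 8 called higher and 2 lower (all genes 11.3% and 9.31%). The summed CPM of 10 Schwann and neural markers was 72.3 and 30.7 in QSC and 22.1 to 69.5 elsewhere. The part of these markers in the Agrn level was not tested.

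Lrp4, the agrin receptor, was low throughout: 0.304 and 0.156 RPKM in QSC, 4.67 in ASC, 1.16 in iMPC Pax7+, 1.42 in iMPC Pax7- and 0.267 in MEF, from 53, 27, 580, 182, 207 and 37 reads. It rose in ASC by 3.73 ± 0.89 on the log2 scale (edgeR adjusted p = 0.00652). The iMPC fractions were above both mice, with differences of 1.64 ± 0.88 (edgeR adjusted p = 0.195) and 1.90 ± 0.87 (0.140) that did not pass. MEF lay between the mice. Its difference of -0.44 ± 0.95 did not pass (edgeR adjusted p = 0.782) and has the other sign, 0.21, when libraries are scaled by their totals alone.

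Musk, the receptor tyrosine kinase at the centre of the pathway, stood at 37.6 and 35.1 RPKM in QSC, 83.0 in ASC, 9.46 in iMPC Pax7+, 11.8 in iMPC Pax7- and 0.0282 in MEF, from 3354, 3109, 5278, 760, 877 and 2 reads. The QSC mice were close, the iMPC fractions below both and ASC above both. It fell in 3 comparisons, with log2 differences of -2.62 ± 0.68 in iMPC Pax7+ (edgeR adjusted p = 0.0118), -2.34 ± 0.67 in iMPC Pax7- (0.0212) and -10.88 ± 1.1 in MEF (8.32e-06). Its ASC difference of 0.60 ± 0.58 did not pass the test (0.493). Measured from the CPM, QSC over MEF was 2007-fold (exact 95% interval 555 to 16574, counting error only), resting on 2 reads in MEF.

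Dok7, the cytoplasmic activator of MUSK, stood at 2.65 and 0.327 RPKM in QSC, 75.7 in ASC, 23.1 in iMPC Pax7+, 13.9 in iMPC Pax7- and 0.0470 in MEF, from 213, 26, 4327, 1668, 930 and 3 reads. It followed Chrng and Chrnd rather than its partner Musk in the iMPC fractions, where Dok7 was above and Musk below both QSC mice. It rose by 5.04 ± 0.86 in ASC (edgeR adjusted p = 0.000524), 3.24 ± 0.82 in iMPC Pax7+ (0.0098) and 2.47 ± 0.81 in iMPC Pax7- (0.0414) on the log2 scale, and fell by 5.6 ± 1.28 in MEF (0.00554). The CPM ratio of QSC to MEF was 49.5 on 3 MEF reads (exact 95% interval 16.7 to 242). Against mouse 1 and mouse 3 alone, the difference was 4.19 and 7.22 in ASC, 2.39 and 5.42 in iMPC Pax7+, 1.62 and 4.65 in iMPC Pax7- and -5.75 and -2.72 in MEF. The iMPC Pax7- call was lost under 4 of 5 other settings, with adjusted p of 0.053 to 0.0913. Within libraries, the Musk level per length was 14.2 and 107 times that of Dok7 in the QSC mice, 1.1 times in ASC, 0.409 times in iMPC Pax7+ and 0.847 times in iMPC Pax7-.

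Rapsn encodes rapsyn. It stood at 39.4 and 49.1 RPKM in QSC, 98.1 in ASC, 26.1 in iMPC Pax7+, 16.8 in iMPC Pax7- and 0.243 in MEF, from 1839, 2269, 3262, 1098, 653 and 9 reads. Gm13778, on the other strand over it, had 0 to 11 reads. ASC was above both mice and the other libraries were below both. It fell in iMPC Pax7-, with a log2 difference of -2.11 ± 0.66 (edgeR adjusted p = 0.034), and in MEF, with -8.12 ± 0.95 (2.29e-05). The differences of -1.43 ± 0.64 in iMPC Pax7+ (edgeR adjusted p = 0.122) and 0.56 ± 0.58 in ASC (0.524) did not pass.

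**Figure D3:**
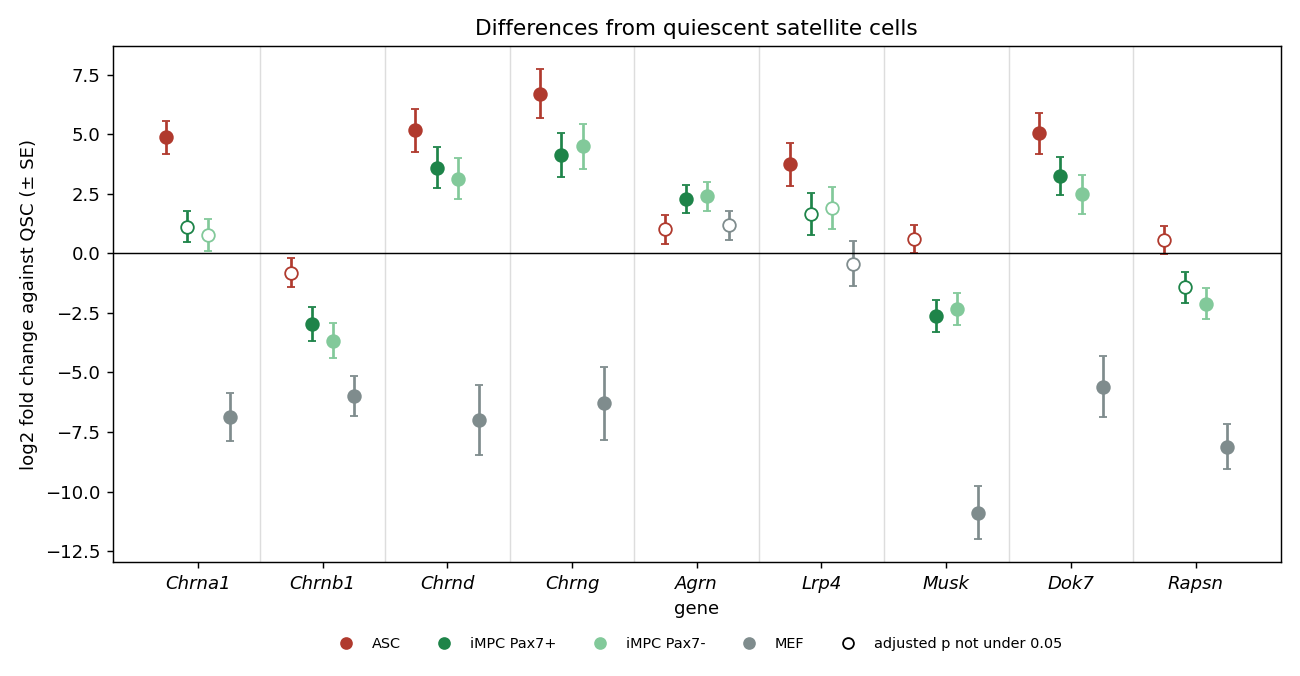
Log2 fold change against QSC (± standard error, edgeR) of the 9 genes with QSC reads in ASC, iMPC Pax7+, iMPC Pax7- and MEF, with open points where the adjusted p was not under 0.05. Chrng reaches 6.71 in ASC and Musk -10.88 in MEF, and Chrnb1 lies below 0 in all 4.

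Counted over the 10 genes, all of which were tested, ASC had 5 higher and 0 lower, beside 11.8% of all genes called higher and 8.24% lower. Without adjustment the lower count in ASC was also 0 (p under 0.05), and DESeq2 called the numbers 5 and 0. At a share of 8.24%, 0 lower calls among 10 genes say little about these genes. Beside the ASC counts, the summed CPM of 14 terminal muscle genes was 214 and 29.8 in the QSC mice and 26864 in ASC, with 14 of 14 called higher. Of these, Myh7 (5 and 1 reads in the QSC mice) and Myh2 (1 and 1) passed the expression filter only through other libraries, where they are high. Their higher calls therefore support nothing further. The part of the terminal muscle genes in the ASC counts was not tested. In iMPC Pax7+, 4 were higher and 2 lower, against 11.3% and 9.31% of all genes. In iMPC Pax7-, 4 were higher and 3 lower, against 12.1% and 6.57%. MEF had 0 higher and 7 lower, against 11.3% and 8.03%, and again 0 were higher at an unadjusted p under 0.05 or by DESeq2, which called 7 lower. The 0 higher calls in MEF likewise say little at a share of 11.3%. The median log2 difference of the 9 genes with QSC reads was 3.73 in ASC, 1.64 in iMPC Pax7+, 1.90 in iMPC Pax7- and -6.30 in MEF, beside 0, -0.03, 0.15 and 0 over all genes. Scaling by library totals alone, which moves the median of all genes from 0 to 0.59 in ASC, from -0.03 to 0.60 in iMPC Pax7+, from 0.15 to 0.86 in iMPC Pax7- and from 0 to 0.61 in MEF, left 1 higher and 1 lower in each iMPC fraction and 4 lower in MEF. The lost rises of Chrng, Chrnd and Dok7 were larger in size there. They were 4.85, 4.31 and 3.95 in iMPC Pax7+ and 5.25, 3.88 and 3.22 in iMPC Pax7-. The lost falls were smaller, at -1.94 and -1.63 for Musk and -1.40 for Rapsn in iMPC Pax7-. The 5 ASC calls held under all 6 settings, as did Chrnb1 and Agrn in both iMPC fractions and Chrna1, Chrnb1, Musk and Rapsn in MEF. By size alone, a rule added after seeing the data (at least 4-fold and at least 5 CPM in the higher group), 5 genes were higher and 0 lower in ASC, against 15.7% and 13.6% of genes. The counts were 4 and 2 in iMPC Pax7+ (14.2% and 15.2%), 4 and 3 in iMPC Pax7- (15.4% and 11.8%) and 0 and 7 in MEF (15.2% and 13.5%). Here too the counts of 0 say little at such shares. Without QSC mouse 1 the MEF count was 4.

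Chrng, Chrnd and Dok7 also differed most between the QSC mice. Mouse 1 exceeded mouse 3 by 17.5-fold for Chrng (exact 95% interval 10.4 to 31.7, counting error only), 11.5-fold for Chrnd (8.19 to 16.7) and 8.64-fold for Dok7 (5.73 to 13.5). Lrp4 and Chrna1 were 2.07- and 1.95-fold higher in mouse 1, while Musk, Agrn, Chrnb1 and Rapsn differed by 1.17-fold or less. So 3 of 9 exceeded 4-fold toward mouse 1 and 0 toward mouse 3, where 5.52% and 3.37% of all tested genes were. Beside this, 5 of 14 terminal muscle genes, 7 of 8 endothelial and 5 of 5 erythroid markers were at least 4-fold higher in mouse 1, with summed CPM of 214 and 29.8, 163 and 40.7, and 1299 and 20.1. Myog, the differentiation factor, stood at 189 and 4.07 CPM. The mice also differed in the sex-linked genes Xist (0.0954 and 530 CPM) and Ddx3y (455 and 0.226 CPM), the pattern of a male mouse 1 and a female mouse 3. Labels do not give their sex, and this pair supplies the replicate spread of every test. The part of these genes and markers, and of sex, in the difference between the mice was not tested.

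Set against the fold between the QSC mice, the only spread available, each step in the order of groups can be larger or smaller than the difference within 1 group. This is a description of single libraries and 1 pair of mice, not a test. For Chrng, the steps from ASC to iMPC Pax7- (4.62-fold) and on to iMPC Pax7+ (1.28-fold) were smaller than the 17.5-fold between mice, and the step from iMPC Pax7+ to the QSC mean (17.6-fold) was about equal to it. The step from QSC down to MEF (84.0-fold) exceeded it. For Chrnd and Dok7 the only single step to exceed the mouse fold was that from QSC down to MEF (137- and 50.5-fold). Taken past the neighbouring groups, ASC stood 36.8- and 33.6-fold above QSC in the pooled counts, beyond the 11.5- and 8.64-fold between mice. There iMPC Pax7+ stood 12.4- and 9.68-fold above QSC, just beyond the mouse fold, and iMPC Pax7- 8.95- and 5.66-fold, below it. For Chrng, ASC stood 107-fold and iMPC Pax7- 23.1-fold above QSC in the pooled counts. For Chrna1, ASC stood 13.5-fold above the next group and QSC 116-fold above MEF, both beyond the 1.95-fold between mice, while the steps between the iMPC fractions (1.27-fold) and from iMPC Pax7- to QSC (1.70-fold) were smaller. Taken past its neighbour, iMPC Pax7+ stood 2.18-fold above QSC in the pooled counts, a difference that did not pass the test above. For Lrp4 the iMPC fractions, and QSC and MEF, did not separate beyond the 2.07-fold between mice. Chrnb1, Musk, Rapsn and Agrn differed little between the mice (1.02- to 1.17-fold). Passing so small a fold does not by itself give an order for their smaller steps. Their largest steps led down to MEF: 5.01-fold from iMPC Pax7- for Chrnb1 and 65.6-fold for Rapsn. From iMPC Pax7+ the largest were 327-fold for Musk, on 2 MEF reads, and 2.15-fold for Agrn. Musk also stepped 5.07-fold from QSC to iMPC Pax7-, and Chrnb1 4.44-fold from ASC to iMPC Pax7+. The Agrn step between the iMPC fractions was 1.08-fold (exact 95% counting interval 1.02 to 1.15), inside the interval of its mouse fold (0.857 to 1.21).

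Between lone libraries there is no replicate check, and a gene counts as different at 4-fold or more with at least 5 CPM in the higher library, which 9 of the 10 genes reached. Between the iMPC fractions 0 of 9 passed in either direction, against 0.208% of genes higher in Pax7+ and 6.66% higher in Pax7-. At such shares 0 of 9 says little about these genes. The largest gaps were Dok7 at 1.71-fold (exact 95% interval 1.58 to 1.85, counting error only) and Chrnb1 at 1.62-fold (1.5 to 1.75), both higher in Pax7+. Beside this, the summed CPM of terminal muscle genes was 1393 in Pax7+ and 4829 in Pax7-, and of fibroblast markers 1994 and 7983, and their part was not tested. ASC exceeded iMPC Pax7+ for 5 of 9 genes (7.91% of all) and iMPC Pax7- for 7 of 9 (5.18%), and was lower for 0 (3.54% and 7.39%). Chrna1 differed most, at 13.5-fold and 17.1-fold. Agrn went the other way, 2.43- and 2.62-fold higher in the iMPC fractions than in ASC. Against MEF, 8 of 9 genes were higher in iMPC Pax7+ (4.97% of all), in iMPC Pax7- (7.08%) and in ASC (7.11%), and 0 were lower (8.71%, 3.56% and 6.15%), with Agrn the gene below 4-fold each time. The counts of 0 lower, against MEF and in ASC against the iMPC fractions, say little at these shares.

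**Figure D4:**
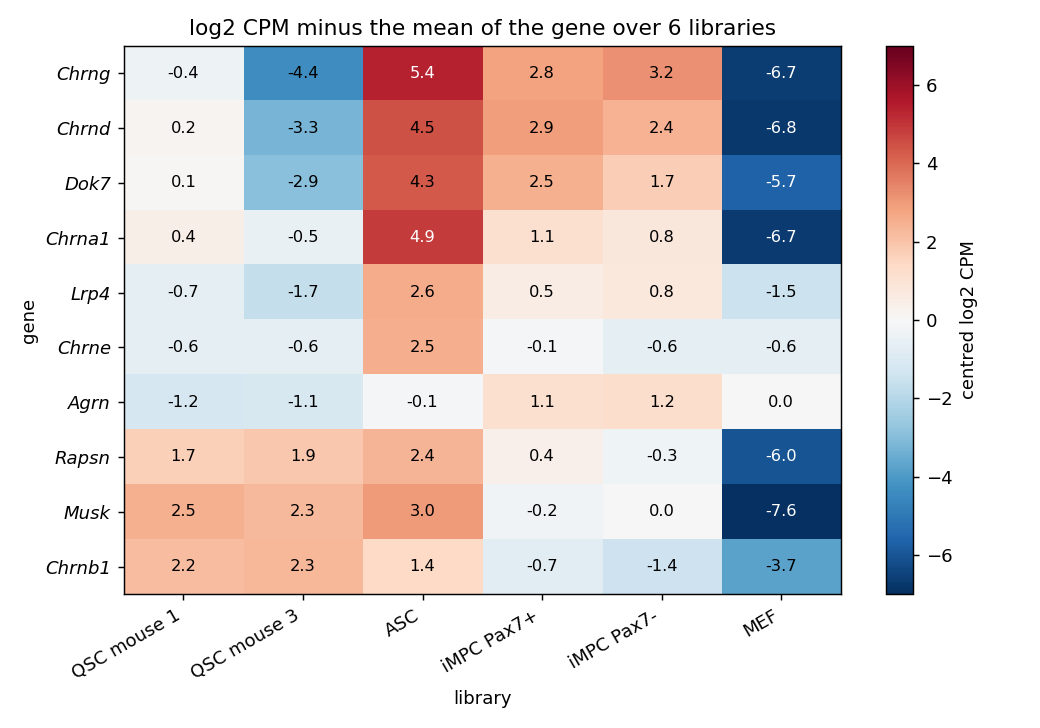
Log2 CPM of each gene minus its mean over the 6 libraries. Chrng, Chrnd, Dok7, Chrna1, Musk and Rapsn are highest in ASC and lowest in MEF, while Chrnb1 and Musk are higher in QSC than in the iMPC fractions.

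Across all 6 libraries, the gene whose centred log2 CPM was closest to that of Chrng among 12661 candidates was Chrnd, with a root mean square difference of 0.70 where the spread of Chrng itself was 4.30. Next came Myog (0.76), Gm7325 (0.81), the sarcoplasmic calcium pump gene Atp2a1 (0.90) and the cardiac actin gene Actc1 (0.94). Dok7 ranked 7 (1.07) and Chrna1 63 (2.01), while Lrp4 ranked 268, Rapsn 489, Musk 628, Agrn 1781 and Chrnb1 5672. The 6 libraries share the depth and scaling described above. For Chrne, with 15 reads in all, the closest were Exoc6 (0.27), Smyd4 (0.33), Sync (0.33), Rasa1 (0.35) and Carns1 (0.35), each highest in ASC. Nearly all Chrne reads were in ASC, so this match follows from the few reads and says nothing further about Chrne.

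Of 35 other genes of the neuromuscular junction, all tested, 13 rose and 3 fell in ASC (all genes 11.8% and 8.24%), 9 and 5 in iMPC Pax7+ (11.3% and 9.31%), 10 and 5 in iMPC Pax7- (12.1% and 6.57%) and 7 and 5 in MEF (11.3% and 8.03%). They had median log2 differences of 0.56, 0.19, -0.10 and -0.46 in that order. Scn4a, Col13a1 and Nrg1 passed the expression filter only through libraries other than QSC, where they are high. Their higher calls, which are part of the counts above, therefore support nothing further. In ASC the sodium channel gene Scn4a rose (edgeR adjusted p = 2.53e-05), to 45.1 CPM from 2 reads in the QSC mice together, a ratio of 973 (exact 95% interval 269 to 8042, counting error only). There the neuregulin receptor gene Erbb3 rose by 7.05 ± 0.72 on the log2 scale (edgeR adjusted p = 4.81e-06), the dystrobrevin gene Dtna by 5.58 ± 0.67 (2.18e-05) and Colq, the collagen tail of acetylcholinesterase, by 4.91 ± 1.04 (0.00302). In iMPC Pax7+ the collagen gene Col13a1 rose by 7.84 ± 0.95 (edgeR adjusted p = 5.95e-05), Erbb3 by 4.37 ± 0.66 and Nrg1 by 4.20 ± 1.32. Col13a1 also rose in iMPC Pax7-, by 7.13 ± 0.94 (edgeR adjusted p = 6.3e-05). The syntrophin gene Sntb2 fell in all 4 comparisons, with log2 differences of -3.15 in ASC, -2.79 in iMPC Pax7+, -2.75 in iMPC Pax7- and -2.73 in MEF. Ache, acetylcholinesterase itself, fell in MEF (edgeR adjusted p = 0.00138), where it had 1 read.

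Of 11 neuronal-type nicotinic subunit genes, 7 were tested and 3 reached 1 CPM in any library. Chrnb4 had 37 reads in iMPC Pax7+ (1.19 CPM, edgeR adjusted p = 0.029) and 74 in iMPC Pax7- (2.5 CPM, 0.0151) and 0 in both QSC mice, at least 17.1- and 35.9-fold against a floor of 3 reads over QSC. It passed the expression filter only through the iMPC fractions, where it is high, so these calls support nothing further, and DESeq2 did not call the Pax7+ difference. Chrna7 stood at 3.72 and 2.89 CPM in QSC and 0 in iMPC Pax7-, where it was at least 32.5-fold lower, taking 3 reads as the floor there (edgeR adjusted p = 0.0174). In ASC and MEF edgeR called 0 of the 7 and so did DESeq2. Over all genes 11.8% were called higher and 8.24% lower in ASC, and 11.3% and 8.03% in MEF. At such shares 0 calls among 7 genes say little about these genes. Without adjustment 1 gene had p under 0.05 in ASC, higher, and 1 in MEF, lower.

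Of 12 genes tied to the control of receptor transcription by nerve activity, 4 rose and 1 fell in ASC (all genes 11.8% and 8.24%), 0 and 4 in iMPC Pax7+ (11.3% and 9.31%), 2 and 4 in iMPC Pax7- (12.1% and 6.57%) and 1 and 8 in MEF (11.3% and 8.03%). In iMPC Pax7+ 1 gene was higher at an unadjusted p under 0.05, and DESeq2 called 0 higher. At a share of 11.3%, 0 higher calls among 12 genes say little about these genes. Myog rose in ASC by 4.41 ± 1.16 (edgeR adjusted p = 0.012) and in iMPC Pax7- by 3.82 ± 1.14 (0.0263). In iMPC Pax7+ its difference of 3.21 ± 1.12 narrowly missed the threshold (edgeR adjusted p = 0.0513). The repressor Hdac9 rose by 5.00 ± 1.34 in ASC (edgeR adjusted p = 0.014), 4.09 ± 1.32 in iMPC Pax7- (0.039) and 4.25 ± 1.32 in MEF (0.0317). Myf5 fell by 4.86 ± 0.82 in iMPC Pax7+ and 6.63 ± 0.91 in iMPC Pax7- (edgeR adjusted p = 0.000603 and 9.69e-05). In MEF, Myod1 fell to 0.598 CPM from 1836 and 630 CPM in QSC (edgeR adjusted p = 2.44e-05), beside the 7 lower receptor and clustering genes.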

How the data were processed

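Poly(A) RNA-seq libraries were mapped to mm9 with STAR 2.3.0 and counted per gene with HTSeq 0.6.0, per the submitters' processing notes, which also name Picard 1.100 and edgeR. The authors deposited raw read counts per gene for each library and 1 table of RPKM. The RPKM deposited by the authors equal the counts divided by the summed counts and 1 gene length (largest relative deviation 5.44e-15). Whether counting used strand is not given in the sources used here.

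The raw counts of all 6 libraries were fitted together with edgeR 4.0.16 in R 4.3.3 (TMM, filterByExpr, glmQLFit and two-sided glmQLFTest, 1 coefficient a group), with 1 residual degree of freedom, a prior of 16.3 and a biological coefficient of variation of 0.476. Lone libraries were compared by CPM ratios (log2 with prior count 2) with exact 95% binomial intervals, which cover counting error only. Replicates were 2 mice. The fit was tested on simulated data. Alternatives were library size and RLE scaling, DESeq2 1.42.0, no filter, a 5 CPM filter and leaving out each QSC mouse. Every member was described. From each other list up to 4 called genes a direction with the largest change could be named, and for Chrng and Chrne the 5 genes closest in pattern. The members and lists were chosen with earlier results of these data known.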

Additional observations from a re-analysis of the deposited data

How the results depend on the processing

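No paired analysis was possible because QSC has mice 1 and 3 and every other group 1 library, so groups share fewer than 2 replicate numbers. Of 180 values (36 results for single genes under 5 settings), 164 kept their direction and side of the threshold, 15 kept the direction but missed it, 0 newly passed and 1 reversed. Scaling by library size left 1 gene higher and 1 lower in iMPC Pax7+ (531 lower over all genes), 1 and 1 in iMPC Pax7- (329 lower, median of 9 genes 2.62) and 4 lower in MEF (461 lower). In ASC it left 501 genes lower. DESeq2 called 1727 genes lower in iMPC Pax7-. The MEF difference of Lrp4 was 0.21 under library size scaling and 0.17 without QSC mouse 1 (-0.83 without mouse 3). Leaving out a mouse put the MEF median of 9 genes between -6.29 (without mouse 3) and -3.48 (without mouse 1) and, in a count added after seeing the data, the genes 4-fold lower in MEF between 4 (without mouse 1) and 7. At 2-fold instead of 4-fold, 8 genes were higher and 1 lower in ASC than in iMPC Pax7+, and 1 was lower than in iMPC Pax7-. The cause of these changes was not tested. Low read numbers (Chrne throughout, 2 or 3 reads of Chrng, Chrnd, Musk and Dok7 in MEF) limit those ratios.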
